A study of Rattus norvegicus with 6 samples.

Results

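The genes for the proteins of the mitochondrial ribosome, named Mrpl for the large and Mrps for the small subunit, were examined in the open chromatin of rat pancreatic islets at postnatal day 10 (P10) and in adults. Chromatin that the Tn5 transposase can enter was mapped by ATAC-seq, and the integrations of Tn5 were counted in 101603 distinct accessible sites (ACS), each assigned to its nearest gene. All ACS whose nearest gene carries a symbol that starts with Mrpl or Mrps were taken. They are 203 ACS at 63 genes, of 13834 genes that are nearest to at least 1 ACS: 111 ACS lay at 36 Mrpl genes and 92 at 27 Mrps genes. The rule used names only and no measured value.

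The adult group was 3 male Sprague-Dawley rats of around P90, with 1 library each (replicates 4, 5 and 6). The P10 group was 3 libraries (replicates 1, 2 and 3), each from a mix of pups of both sexes from 1 of 3 litters. The labels name no treatment and no engineered allele in either group. By the study's methods the islet isolation differed too. Pooled P10 pancreases were shaken by hand in collagenase, while adult ones were digested after its injection into the pancreatic duct. Age, sex, the pooling of pups and the isolation therefore differ between the groups together, and their effects cannot be told apart. Each library came from dissociated islet cells of all types, so fewer cells of a type and fewer open copies per cell cannot be told apart either. The ACS held 7916919 to 11903909 integrations in the adult libraries and 13491534 to 21168463 in the P10 libraries.

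The mitochondrial ribosome sits inside the mitochondrion and translates the few proteins that mitochondrial DNA encodes, which are core subunits of the respiratory chain and of ATP synthase. Its ribosomal RNAs come from mitochondrial DNA, but all of its proteins are encoded in the nucleus, made in the cytosol and imported. Part of them descend from bacterial ribosomal proteins, and the others were added in the mitochondrial lineage. In beta cells, ATP made by the respiratory chain couples glucose metabolism to insulin release. Promoters of such nuclear genes for mitochondrial proteins are known to be used in most cells and to carry sites for NRF1, for ETS factors such as GABP, and for YY1.

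The start regions of these genes were read from the RefSeq promoter sequences (build GRCr8, 250 bases before to 50 after the start), to show the letters at these starts. All 63 gene identifiers matched RefSeq, where Mrps36 is now named Kgd4, a subunit of the oxoglutarate dehydrogenase complex, and a promoter sequence was at hand for 50 genes, 46 of which had a listed TSS-class ACS. RefSeq lists 78 protein-coding Mrpl and Mrps genes, of which 62 were the nearest gene of an ACS. The sequences below show the promoters of the 4 genes with a called TSS-class ACS and a RefSeq sequence, and those of Mrpl27 and Mrpl32 as examples with several matches. Each runs from 150 bases before the start to 30 after it, 5′ to 3′ along the gene. Capitals mark the letters searched for NRF1 (GCGCANGCG), ETS factors (CCGGAAG) and YY1 (AANATGGC) on either strand, where matches may overlap.
Mrps7, chr10:101342492-101342671, plus strand: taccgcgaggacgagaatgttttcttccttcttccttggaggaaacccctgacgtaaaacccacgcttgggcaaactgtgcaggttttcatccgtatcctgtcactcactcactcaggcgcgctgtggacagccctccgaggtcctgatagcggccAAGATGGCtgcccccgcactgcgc
Mrpl34, chr16:18186297-18186476, plus strand: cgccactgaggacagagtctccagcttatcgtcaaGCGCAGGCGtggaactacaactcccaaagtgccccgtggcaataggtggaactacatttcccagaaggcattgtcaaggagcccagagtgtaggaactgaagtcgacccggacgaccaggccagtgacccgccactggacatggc
Mrpl36, chr1:31795092-31795271, minus strand: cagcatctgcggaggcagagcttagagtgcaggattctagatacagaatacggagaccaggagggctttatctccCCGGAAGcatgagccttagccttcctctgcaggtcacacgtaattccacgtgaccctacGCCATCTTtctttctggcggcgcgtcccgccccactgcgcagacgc
Mrpl14, chr9:22811204-22811383, minus strand: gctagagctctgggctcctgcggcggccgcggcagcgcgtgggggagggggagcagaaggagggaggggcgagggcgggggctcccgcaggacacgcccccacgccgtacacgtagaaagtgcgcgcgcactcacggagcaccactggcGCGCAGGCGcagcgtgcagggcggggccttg
Mrpl27, chr10:80092195-80092374, plus strand: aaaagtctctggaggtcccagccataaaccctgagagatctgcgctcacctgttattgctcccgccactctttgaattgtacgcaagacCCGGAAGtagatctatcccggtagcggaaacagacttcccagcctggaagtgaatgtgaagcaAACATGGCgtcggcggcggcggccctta
Mrpl32, chr17:55260501-55260680, plus strand: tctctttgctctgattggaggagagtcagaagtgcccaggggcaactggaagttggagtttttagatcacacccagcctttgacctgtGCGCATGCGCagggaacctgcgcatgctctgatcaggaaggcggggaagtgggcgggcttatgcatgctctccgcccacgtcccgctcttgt

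Mrps7 carried the YY1 letters just past its start and Mrpl34 and Mrpl14 the NRF1 letters. Mrpl36 and Mrpl27 carried both the ETS and the YY1 letters, and in Mrpl32 NRF1 matches on both strands overlap. The ACS were placed on another build (Rn5), so a match was not placed within an ACS. At Mrpl14 the called ACS lies farther inside the gene, beside a start ACS that was not called.

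Over the 300 bases, 34 of the 50 promoters (68.0%) held the letters of at least one of NRF1, ETS and YY1, beside 34.7% of the promoters of 7947 genes with a TSS-class ACS and 19.8% of all 27457 RefSeq promoters. The YY1 letters were in 17 of 50 (34.0%), against 9.76% and 7.36%. The ETS letters were also in 17 of 50 (34.0%), against 18% and 9.22%. The NRF1 letters were in 9 of 50 (18%), against 13.7% and 6.26%. The GGGCGG letters of SP and KLF factors were in 24 of 50 (48.0%), a lower share than the 66.4% of genes with a TSS-class ACS and a higher one than the 34.9% of all promoters. The CCAAT box was in 22 of 50 (44.0%), against 37.9% and 37.7%. Among the 46 genes with a listed TSS-class ACS, 67.4% held the letters of NRF1, ETS or YY1, 30.4% those of YY1, 34.8% those of ETS factors, 19.6% those of NRF1, 52.2% GGGCGG and 45.7% CCAAT. These shares are descriptions of letters, and no binding was measured.

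**Figure D1:**
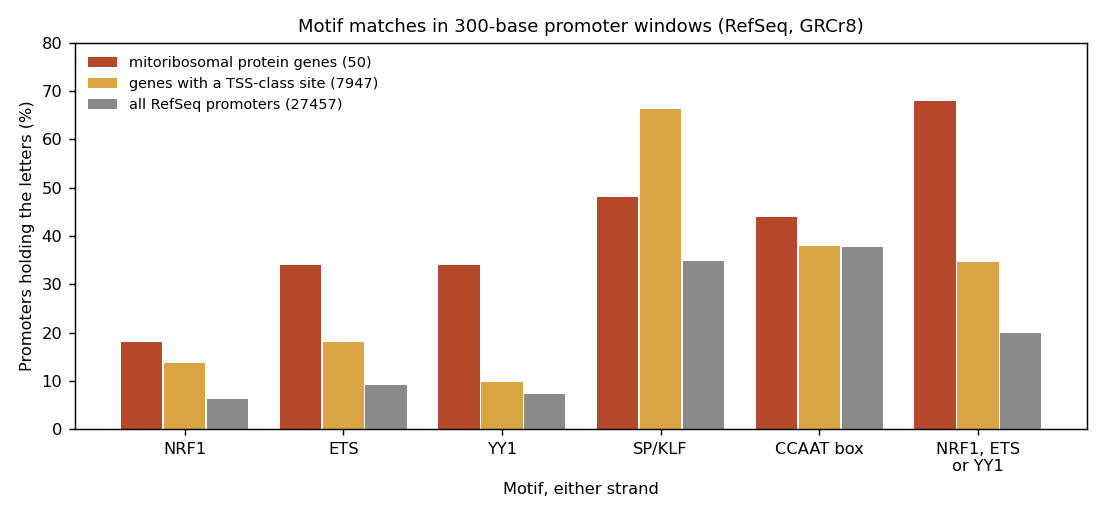
Share of promoters (vertical axis, percent) that hold each motif's letters on either strand. The groups are 50 Mrpl and Mrps genes (Mrps36 among them), 7947 genes with a TSS-class ACS and all 27457 RefSeq promoters. The letters of NRF1, ETS or YY1 are in 68.0%, 34.7% and 19.8% of the 3 groups, while GGGCGG (SP/KLF) is in 48.0%, 66.4% and 34.9%.

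Of the 203 ACS, 61 were of the TSS class (listed within 1 kb of a gene start), 23 of the proximal class (up to 10 kb) and 119 of the distal class. A TSS-class ACS was listed at 57 of the 63 genes. None was listed under Mrps2, Mrps10, Mrps28, Mrpl13, Mrpl46 and Mrpl50. The starts of Mrpl13, Mrpl46 and Mrpl50 were nevertheless covered by a TSS-class ACS that the table lists with Mtbp, Mrps11 and Zfp189, while no ACS covered the listed starts of Mrps2, Mrps10 and Mrps28. Of the 61, 56 overlapped the gene start, and 4 genes (Mrpl14, Mrpl42, Mrpl43 and Mrps23) had 2 TSS-class ACS. There was a single ACS at 22 genes, and 18 genes with at least 4 ACS held 129 of the 203. Mrpl14 had the most (14), followed by Mrps27 and Mrps30 (12 each), Mrpl13 (11) and Mrps33 (8).

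The TSS-class ACS were close to the median of their class in width and somewhat weaker. Their median width was 668 bp and that of all 11055 TSS-class ACS 667 bp. Their median level, the mean over all 6 libraries as CPM (counts scaled to a common number of ACS integrations per library, with TMM factors) and per kb of ACS, was 21.6, beside 24.4 for all TSS-class ACS, and 27 of 61 lay above the latter. Restricted to ACS that overlap a gene start, the 56 members had a median of 22.1 CPM per kb and 679.5 bp, against 27.5 CPM per kb and 746 bp for all 8525, and 37 of 56 lay below that level. Between members the level per kb ranged from 7.77 to 77.9 CPM per kb.

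At the top of that range was Mrps16, which encodes a small subunit protein of a bacterial family. Its ACS on chr15:8452377-8453010 had 56.2, 45.5 and 53.1 CPM in adults and 53.7, 46.7 and 41.1 CPM at P10. The libraries of both ages overlapped. The ACS of Mrpl51 (chr4:224722651-224724038), a mitochondria-specific large subunit protein, had the most CPM without regard to length, with 75.2, 54.1 and 59.3 in adults and 75.1, 56.2 and 57.1 at P10. Adult replicate 4 and P10 replicate 1 were the highest libraries of their groups there. Its log2 fold change of adult over P10 was 0.0015 (SE 0.17).

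None of the 6 strongest TSS-class ACS by CPM, which include Mrps16 and Mrpl51, was called. Per kb, the start of Mrpl34 was also strong (62.5 CPM per kb), and it was called Down, as described with the calls. Mrpl18 (chr1:51718446-51719438), whose protein belongs to the family that binds 5S rRNA in bacteria, had 60.4 ± 8.62 CPM in adults and 60.1 ± 8.05 at P10 (SD, n = 3 each). Mrpl40 had 55.4 ± 10.2 and 52.9 ± 3.26 CPM, Mrpl41 52.7 ± 8.83 and 56.1 ± 5.95 CPM, and Mrps9 54.7 ± 7.19 and 52.4 ± 4.98 CPM. In each of them the libraries of both ages overlapped. The weakest ACS over a start were not called either. Mrpl20 had 3.86 ± 0.520 CPM in adults and 4.49 ± 1.10 at P10, Mrpl27 4.16 ± 0.588 and 3.90 ± 0.795 CPM, and Mrps21 4.03 ± 1.59 and 4.72 ± 1.12 CPM, with log2 fold changes of -0.21, 0.10 and -0.24 and standard errors of 0.30 to 0.31. The weakest TSS-class ACS of all, inside Mrpl43, was called and is described with the calls. The starts of Mrpl48, Mrps17 and Mrps23, with Mrpl18 and Mrpl51, had the smallest fitted changes among the TSS-class ACS, from -0.02 to 0.01 on the log2 scale, with standard errors of 0.16 to 0.27. With errors of that size and 3 libraries per group, small changes at a single start were not detectable.

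**Figure D2:**
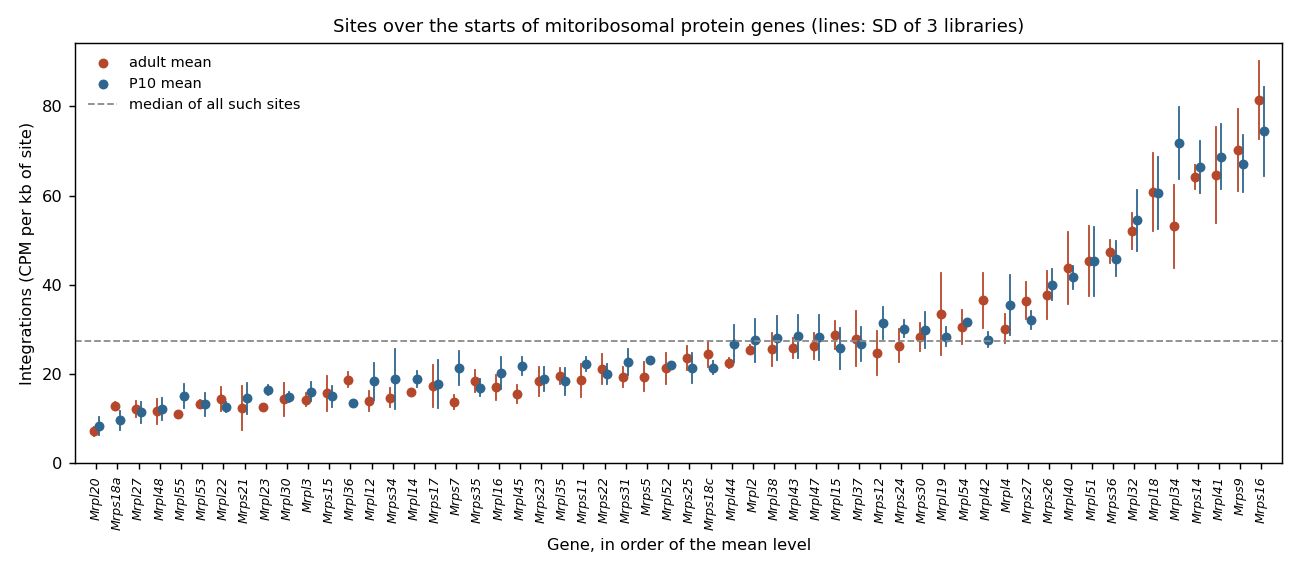
Level of the 56 ACS that overlap the start of an Mrpl or Mrps gene, Mrps36 among them (vertical axis, CPM per kb of ACS). Points are the means of 3 adult and of 3 P10 libraries with lines for the SD, in order of the mean level. Adult and P10 points stay close along the order from Mrpl20 (7.77 CPM per kb over all libraries) to Mrps16 (77.9), and 37 genes lie below the dashed median of all ACS over gene starts, 27.5 CPM per kb.

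The share of each library's ACS integrations that fell in the 61 TSS-class ACS was 0.123%, 0.115% and 0.113% in the adult libraries and 0.134%, 0.131% and 0.122% in the P10 libraries. The group means were 0.117% ± 0.0052 and 0.129% ± 0.0060 (SD, n = 3 each), and adult replicate 4 lay just above P10 replicate 3. All TSS-class ACS together also held a lower share in adults, 25.5% ± 0.858 against 28.2% ± 0.664. Within the TSS class the members held 0.460% ± 0.0076 in adults and 0.457% ± 0.0110 at P10, and these libraries overlapped. The difference between ages in the members' share was therefore not present when the TSS class was the denominator.

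ACS were compared between the ages with edgeR's quasi-likelihood test on the whole table, with p-values adjusted by the Benjamini-Hochberg procedure over all 101603 ACS (the adjusted p is called FDR here). An ACS was called Up (more integrations in adults) or Down at an unadjusted p under 0.05 and an FDR under 0.2. Of the 203 ACS, 21 (10.3%) were called Up and 14 (6.90%) Down. Over all ACS, 12.6% were called Up and 6.64% Down, so the members' shares lay near the background of this fit. The study, with edgeR at the same limits, reported the opposite balance, with more ACS Down than Up. Why the balance differs was not tested. Scaled to column sums without TMM factors, 15 members were Up and 25 Down, and scaled to all sequenced reads 1 was Up and 154 Down, as the median of all ACS fell to -0.10 and -0.83 on the log2 scale. The direction of a change is thus given relative to the other ACS. Without adult replicate 4, 7 were Up and 9 Down. Without adult replicate 6 the counts were 13 and 7, without P10 replicate 2 they were 7 and 8, and without P10 replicate 3 they were 12 and 12.

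At the gene starts few ACS were called, as in the TSS class as a whole. Of the 61 TSS-class ACS, 2 were called Up (3.28%, background of all TSS-class ACS 2.74%), 3 were called Down (4.92%, background 7.76%), and 56 were not called. The 3 Down calls became 1 without adult replicate 6 or without P10 replicate 2, and 5 without P10 replicate 3. Adult and P10 libraries did not overlap at 11 of the 61, with adults above in 3 and below in 8 (background 20.8%). The median log2 fold change was -0.05 over the members and -0.10 over all TSS-class ACS. Over the 56 that overlap a start it was -0.06, against -0.10 for all 8525 of that kind. Among the 142 ACS outside the TSS class, 19 were Up (background 13.7%) and 11 Down (background 6.51%). Their median log2 fold change was -0.14, beside 0.01 for all ACS outside the TSS class. It was -0.07 without adult replicate 6 and between -0.12 and -0.16 without any other library.

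**Figure D3:**
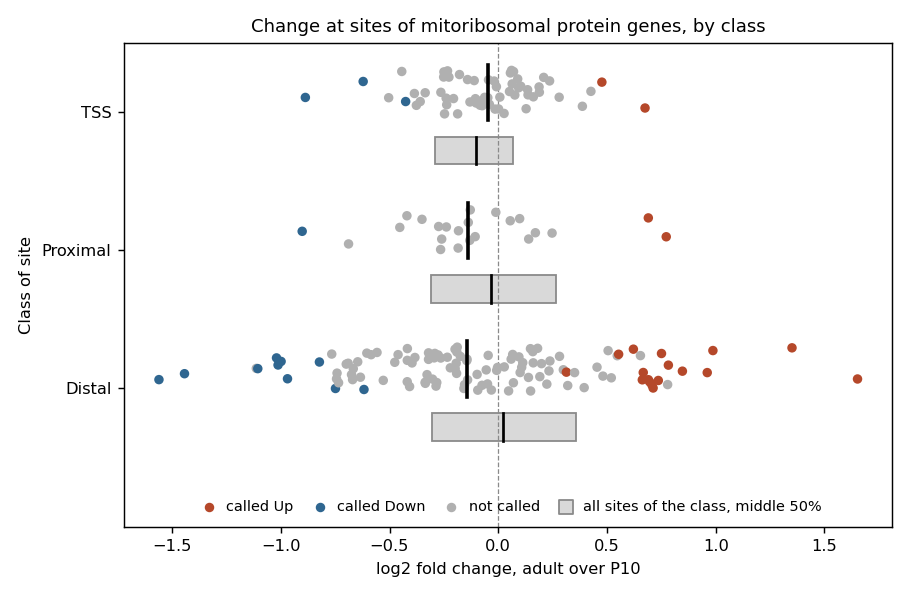
Log2 fold change of adult over P10 (horizontal axis) for the 61 TSS-class, 23 proximal and 119 distal ACS of mitoribosomal protein genes, one point each, with a thick line at their median. The grey bar under each row spans the central quartiles of all ACS of that class with a line at its median. TSS-class points crowd around -0.05 with 5 called, and distal points spread from -1.56 to 1.65 with 27 called.

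By subunit, the 38 TSS-class ACS of large subunit genes had a median log2 fold change of -0.06, with 2 Up and 2 Down. The 22 of small subunit genes had -0.03, with 1 Down and 0 Up by edgeR, DESeq2 and voom alike. Also, 0 of these 22 were higher in adults at an unadjusted p under 0.05. Over all TSS-class ACS, 2.74% were called Up and 7.76% Down, so 0 Up among 22 lay near the background. Mrps18a and Mrps30 were counted with the large subunit, to which their proteins belong, and Mrps36 with neither. Proteins of bacterial families had -0.08 in the large and -0.12 in the small subunit, and mitochondria-specific ones -0.04 and 0.02. Outside the TSS class, 10 of 89 large subunit ACS were Up (11.2%) and 5 Down (5.62%). Of 52 small subunit ACS, 9 were Up (17.3%) and 6 Down (11.5%). The background there was 13.7% Up and 6.51% Down. Whether these medians and shares differ was not tested.

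The TSS-class ACS with the smallest p was that of Mrps7, a core protein of the small subunit head. It lies on chr10:104125129-104125991 over the gene start. It had 11.7, 13.3 and 10.7 CPM in adults and 19.2, 21.3 and 14.7 CPM at P10. Every adult library was below every P10 library. By edgeR's quasi-likelihood test it fell by 0.62 on the log2 scale (SE 0.21, FDR 0.064, Benjamini-Hochberg). The call was lost without P10 replicate 2 and kept without each of the other 5 libraries.

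The single ACS of Mrpl34, a small basic protein of the large subunit, lies on chr16:19735033-19735481 over the start of a gene of only 736 bp. It had 26.7, 25.8 and 19.1 CPM in adults and 34.8, 33.8 and 28.1 CPM at P10. The groups did not overlap, although adult replicate 4 and P10 replicate 3 were close. It was called Down with a log2 fold change of -0.43 (SE 0.19, edgeR FDR 0.166), and the call was lost without adult replicate 6, P10 replicate 1 or P10 replicate 2.

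Mrpl36, which encodes one of the shortest proteins of the large subunit, went the other way. Its start ACS (chr1:33993720-33994377) had 12.8, 13 and 11.1 CPM in adults and 8.88, 8.63 and 9.15 CPM at P10. All adult libraries were above all P10 libraries, and the P10 values lay within 1 CPM of each other. The log2 fold change was 0.48 (SE 0.22, edgeR FDR 0.197), near the limit of 0.2, and the call was lost without any one of the 6 libraries. This ACS ranks below the 15 Up ACS of smallest p that were to be named, and it is given because so few starts were called.

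The other 2 calls of the TSS class were second ACS inside a gene, beside a start ACS that was not called. In Mrpl43, the ACS on chr1:272197976-272198230 had 2.17, 2.14 and 1.29 CPM in adults and 4.23, 3.07 and 3.22 CPM at P10, without overlap. It was Down by edgeR, with a log2 fold change of -0.89 (SE 0.35, FDR 0.121), a call lost without adult replicate 6 or P10 replicate 1. The start ACS of Mrpl43 had 17.2 ± 1.49 and 19.0 ± 3.19 CPM, with a log2 fold change of -0.14 (SE 0.20). In Mrpl14, the ACS on chr9:16586333-16586697 had 9.67, 11.7 and 8.12 CPM in adults and 8.55, 5.42 and 4.39 CPM at P10. P10 replicate 1 overlapped the adults. It was Up, with a log2 fold change of 0.68 (SE 0.26, edgeR FDR 0.112), a call lost without adult replicate 4 or 5 or P10 replicate 2 or 3. The start ACS of Mrpl14, which lies next to it, had 20.7 ± 0.729 and 24.5 ± 2.28 CPM, all adult libraries below all P10 libraries, with a log2 fold change of -0.25 (SE 0.19) that was not called. The difference between the neighbouring ACS was not tested.

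**Figure D4:**
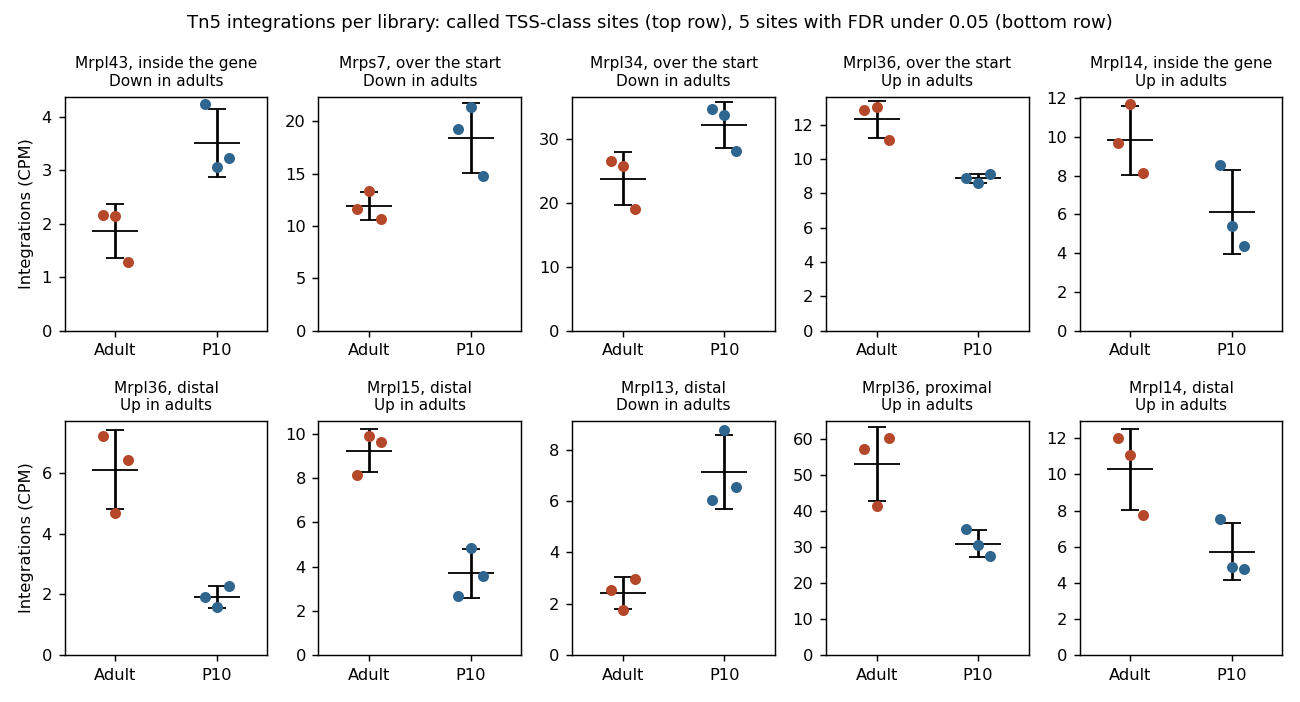
Tn5 integrations in CPM (vertical axes, from 0) in each adult and P10 library, with the mean and SD as black lines. The top row holds the 5 called TSS-class ACS, where Mrpl43, Mrps7 and Mrpl34 are lower and Mrpl36 and Mrpl14 higher in adults; the bottom row holds the 5 ACS with an FDR under 0.05, where only the distal ACS of Mrpl13 is lower in adults.

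Away from the starts the changes were larger, with lower counts and larger errors. Outside the TSS class the members' median mean count was 59.8 and their median standard error 0.31, against 227.5 and 0.21 in it. Over all ACS these were 58.0 and 0.31 outside, against 235.5 and 0.21 in the TSS class. Adult and P10 libraries did not overlap at 30 of the 142 members outside the TSS class (21.1%, background 25.2%). Over all 203 ACS they did not overlap at 41 (20.2%, background 24.7%), and 23 of these 41 were called. At an FDR under 0.05, 4 Up and 1 Down remained, and these 5 were also those whose call was kept without each library in turn. The called ACS belonged to 23 genes, of which 18 had calls only outside the TSS class. Nearest does not mean regulated, and the gene that such an ACS acts on was not measured.

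Mrpl36 held the ACS with the smallest p. It lies on chr1:33925707-33925974, 68584 bp from the listed start. It had 7.23, 4.67 and 6.45 CPM in adults and 1.91, 1.57 and 2.27 CPM at P10. The lowest adult library was above the highest P10 library by more than the whole P10 range. By edgeR's quasi-likelihood test the log2 fold change was 1.65 (SE 0.31, FDR 0.00057). A second, stronger ACS of the same gene, in the proximal class on chr1:33989307-33990204, had 57.5, 41.5 and 60.5 CPM in adults and 35.1, 30.5 and 27.4 CPM at P10, again without overlap. Its log2 fold change was 0.77 (SE 0.18, edgeR FDR 0.00364). All 7 ACS assigned to Mrpl36 had a log2 fold change above 0, from 0.06 to 1.65, and 3 were Up and 0 Down. The table gives Mrpl36 a span of 1305649 bp, far beyond the gene of a short protein, so the listed position inside the gene of 4 of them rests on that model.

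The ACS of Mrpl15, a large subunit protein of a bacterial family, on chr5:19463811-19464226 lies 71637 bp downstream of the start. It had 8.13, 9.93 and 9.67 CPM in adults and 2.65, 4.85 and 3.59 CPM at P10. No P10 library came near the adults, and the log2 fold change was 1.35 (SE 0.27, edgeR FDR 0.00114). At Mrpl14, the distal ACS on chr9:16524472-16525015 had 12.0, 11.1 and 7.73 CPM in adults and 7.53, 4.85 and 4.76 CPM at P10. Adult replicate 6 and P10 replicate 1 almost met. It was Up, with a log2 fold change of 0.85 (SE 0.26, edgeR FDR 0.0319). Mrpl14 had no other call outside its TSS class, and over all 14 the log2 fold changes ran from -0.67 to 0.85.

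Further Up calls in order of p by edgeR were at Mrpl37 (chr5:130503428-130503816, 9.24 ± 0.969 against 5.55 ± 0.459 CPM, FDR 0.0533), Mrpl45, Mrps27, Mrpl48, Mrps11, Mrpl13, Mrps16, Mrps10, Mrps24 and Mrps23, with log2 fold changes of 0.62 to 0.99. Mrps11, whose protein is part of the small subunit platform, had 8.58, 6.91 and 6.70 CPM in adults and 3.77, 5.28 and 4.76 CPM at P10 on chr1:141473749-141474166. All its adult libraries were higher. The ACS of Mrps10 on chr9:14561997-14562489 had 23.9, 20.6 and 20.9 CPM in adults and 22.2, 7.63 and 10.6 CPM at P10, so P10 replicate 1 reached the adult level while the other two did not. The strongest ACS per kb among all members, 98.5 CPM per kb, was a distal one of Mrps28 on chr2:114788255-114789139, named after its values were seen. It had 96.3, 89.4 and 104 CPM in adults and 81.3, 73.8 and 77.9 CPM at P10, a small rise without overlap (log2 fold change 0.31, SE 0.14, edgeR FDR 0.195). Its call was lost without any one library except adult replicate 5.

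The largest fall was upstream of Mrpl13, a large subunit protein of a bacterial family. The ACS on chr7:96042490-96043145, 110481 bp before the start, had 2.53, 1.75 and 2.96 CPM in adults and 6.04, 8.77 and 6.56 CPM at P10. Even the lowest P10 library had more than the highest adult library by a wide margin. By edgeR's quasi-likelihood test the log2 fold change was -1.56 (SE 0.32, FDR 0.00123). A weaker ACS on chr7:96019712-96020049 had 0.271, 1.07 and 0.645 CPM in adults and 1.67, 1.36 and 2.27 CPM at P10, with a log2 fold change of -1.44 (SE 0.48, edgeR FDR 0.0544), and its call was lost without adult replicate 4. Still farther from the start, the ACS on chr7:96077433-96077717 was Up, with 3.62 ± 1.37 CPM in adults, 1.84 ± 0.470 at P10 and a log2 fold change of 0.96 (SE 0.36, edgeR FDR 0.0946). All 11 ACS assigned to Mrpl13 lay upstream of it, from 16075 to 160372 bp away, and the other 8 were not called.

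Both directions also met at Mrps27, which encodes a mitochondria-specific RNA-binding protein of the small subunit. The table gives the gene 67809 bp, and 10 of its 12 ACS lie inside it. Along the gene, the ACS at 16951, 28252 and 42095 bp from the start were Down and those at 36889 and 49069 bp were Up. The ACS at 16951 bp (chr2:48777287-48777756) had 5.60, 5.16 and 4.12 CPM in adults and 8.92, 6.56 and 7.45 CPM at P10, without overlap. The ACS at 36889 bp (chr2:48797225-48797509) had 6.42, 9.74 and 6.83 CPM in adults and 5.21, 4.78 and 3.70 CPM at P10, also without overlap. Their log2 fold changes were -0.62 (SE 0.27, edgeR FDR 0.16) and 0.75 (SE 0.27, edgeR FDR 0.0801). The other Mrps27 calls overlapped between the ages. None of the 5 calls was kept without each library in turn. The start ACS of Mrps27 had 23.2 ± 2.66 and 20.4 ± 1.26 CPM and was not called.

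At Mrps30, a large subunit protein in spite of its name, the ACS on chr2:69294449-69294970 was Down, with 4.61, 1.56 and 3.74 CPM in adults and 7.62, 5.99 and 5.66 CPM at P10. Adult replicate 5 was the lowest library, and the call (log2 fold change -0.97, SE 0.32, edgeR FDR 0.0514) was lost without it. An ACS 143240 bp from the start, with 10.4 ± 2.62 CPM in adults and 7.05 ± 0.983 at P10, was Up (log2 fold change 0.55, SE 0.25, edgeR FDR 0.178). At Mrpl45, an ACS 13050 bp from the start was Up (4.04 ± 1.36 against 2.03 ± 0.698 CPM, log2 fold change 0.99) and one at 96251 bp Down (2.38 ± 0.289 against 4.21 ± 0.711 CPM, log2 fold change -0.82). Mrpl13, Mrpl45, Mrps27 and Mrps30 were the 4 genes with calls in both directions.

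**Figure D5:**
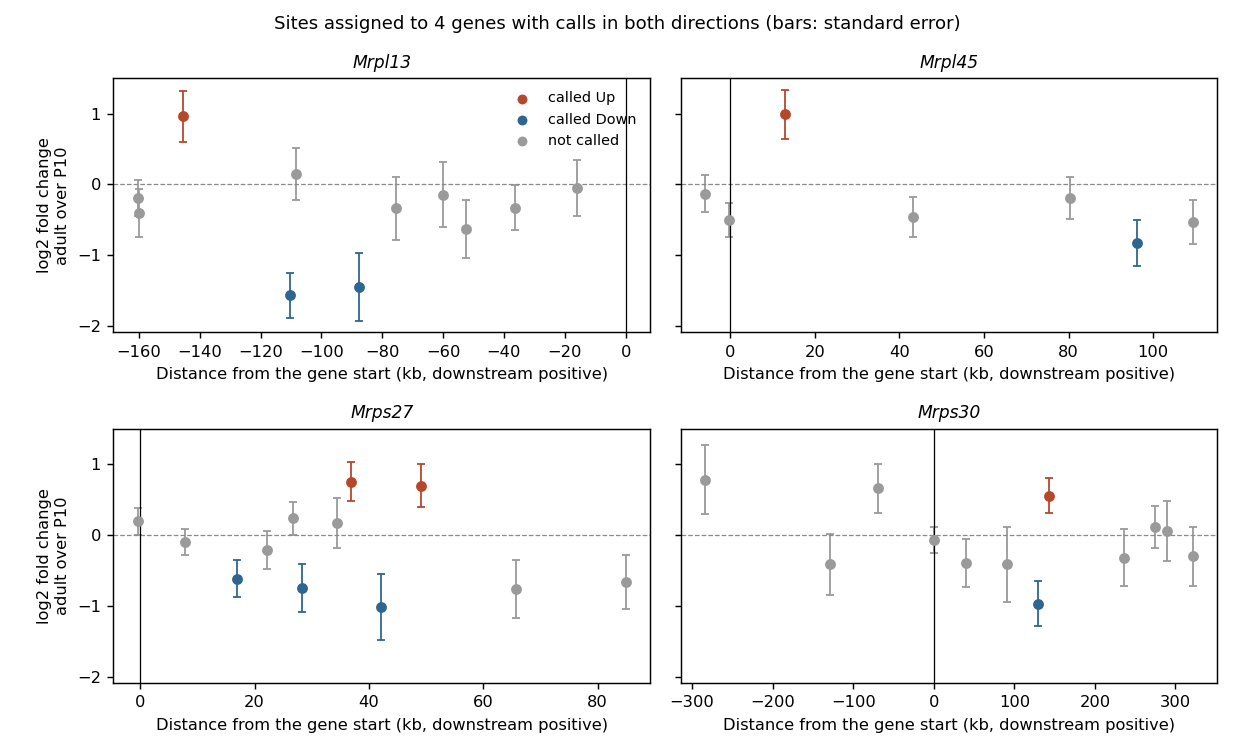
Log2 fold change of adult over P10 with its standard error (vertical axes) for each ACS assigned to Mrpl13, Mrpl45, Mrps27 and Mrps30, against the distance from the gene start in kb (horizontal axes, downstream positive, vertical line at the start). Red ACS were called Up and blue Down; at Mrps27 Down calls at 16951, 28252 and 42095 bp alternate with Up calls at 36889 and 49069 bp.

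The remaining Down calls were at Mrps14 (1.82 ± 0.645 against 3.75 ± 0.797 CPM, log2 fold change -0.999, edgeR FDR 0.0844), at Mrpl16 (1.02 ± 0.102 against 1.94 ± 0.11 CPM, log2 fold change -0.90, SE 0.41, edgeR FDR 0.189) and at 2 ACS upstream of Mrps9 (log2 fold changes -1.11 and -1.02). None of these calls was kept without each library in turn. That of Mrpl16 was lost without any one library except P10 replicate 1. The Mrps9 libraries overlapped between the ages at both ACS, and its start ACS, one of the strongest, had a log2 fold change of 0.06. Among the 18 genes with at least 4 ACS, Mrpl19, Mrpl42, Mrps5, Mrps18a, Mrps31 and Mrps33 had no call at any ACS. Mrps5 had 4 ACS, with log2 fold changes from -0.69 to -0.05. The 3 widest members, of 1365 to 1428 bp, were the start ACS of Mrpl51 and Mrpl47 and a distal ACS of Mrps2, and none was called.

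Genes that work with the mitochondrial ribosome were read from a list of 62 symbols. Of these, 43 were nearest to an ACS, with 156 ACS, of which 19 (12.2%) were Up and 6 (3.85%) Down, beside 12.6% and 6.64% of all ACS. None of their 42 TSS-class ACS was called by edgeR (background 2.74% Up and 7.76% Down), 2 had an unadjusted p under 0.05 (both lower in adults), DESeq2 called 1 Down and limma's voom test 0, and the median log2 fold change of those 42 was -0.10. The 5 mitoribosomal proteins with other symbols, such as Dap3 and Ptcd3, each had a TSS-class ACS, with changes from -0.48 to 0.14 and a median of -0.12. The starts of 11 genes for ribosome assembly and rRNA modification had a median of 0.0041, and those of 10 translation factor genes a median of -0.14. Genes for mitochondrial aminoacyl-tRNA synthetases held 68 of the 156 ACS, with 12 Up (17.6%, 8 of them at Fars2) and 3 Down.

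The ACS of Tfam, which packages mitochondrial DNA and starts its transcription, on chr20:20804444-20804829 had 21.8, 21.5 and 19.9 CPM in adults and 7.02, 6.13 and 4.76 CPM at P10. The adult values were tightly grouped and far above every P10 value, with a log2 fold change of 1.82 (SE 0.22, edgeR FDR 1.4e-06). The most changed ACS of Fars2 had 13.1 ± 1.87 CPM in adults and 4.15 ± 1.11 at P10, a log2 fold change of 1.65 (SE 0.25, edgeR FDR 3.9e-05). Other Up calls were at Wars2 (1.10), Nars2 (1.21), the elongation factor gene Gfm1 (1.02), the release factor gene Mtrf1l (0.97), Malsu1 (0.55) and Chchd1 (1.03). These are log2 fold changes of the ACS with the smallest p, which was proximal at Gfm1 and Chchd1 and distal at the others. Tfb1m, an rRNA methyltransferase, and Dhx30, a helicase of ribosome assembly, each had a weak Down ACS (log2 fold changes -1.49 and -1.29). Tfb1m had 0.478 ± 0.266 CPM in adults and 1.34 ± 0.302 at P10 (SE 0.51, edgeR FDR 0.0606). Dhx30 had 0.810 ± 0.440 and 2.04 ± 1.23 CPM (SE 0.50, edgeR FDR 0.111), and its libraries overlapped between the ages. Wars2 and Nars2 had Down ACS as well (-1.14 at Wars2, -1.02 and -0.64 at Nars2), and the last Down call was at Tfb2m (-1.41), named after its values were seen. All Down ACS of this list were distal, and none of these calls was kept without each library in turn.

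Some TSS-class ACS of cell type markers were called as well, beside 2.74% Up and 7.76% Down over all TSS-class ACS. Beta cell markers had such an ACS at 5 of 7 genes. Their sums of 150 to 203 CPM in adults and 192 to 315 at P10 overlapped. Ins1 and Ins2 were Down, while Iapp, Pdx1 and Nkx6-1 were not called. Duct markers (3 of 4 genes) summed to 17.5 to 20.2 CPM in adults and 24.7 to 34.4 at P10. Sox9 and Cftr were Down and Krt19 was not called. Delta cell markers (2 of 2 genes) summed to 11.6 to 13.7 and 17.6 to 25.6 CPM, with Hhex Down at 2 ACS and Sst not called. Leukocyte markers (1 of 4 genes, Cd74 Up) summed to 26.4 to 36.7 and 15.9 to 17.6 CPM. No TSS-class ACS of alpha cell (3 of 4 genes), acinar, endothelial (1 of 5), mesenchymal (3 of 5) or proliferating cell markers (3 of 4) was called. The other genes of these lists had no such ACS and were not assessed. Acinar markers had a TSS-class ACS at 1 of 7 genes, with 3.52 to 4.48 CPM in adults and 4.6 to 5.14 at P10, and none was listed for Cpa1, Cel, Cela1, Prss1, Pnlip and Ctrb1. Whether the makeup of the islets has a part in the calls above was not tested.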

How the data were processed

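ATAC-seq libraries of islet cells from 3 adult rats and 3 litters of P10 pups were analysed. Per the labels and the study's methods, the authors aligned reads to Rn5 with BWA 0.7.13, removed mitochondrial and low-quality reads with SAMtools 1.3, called peaks with MACS2 2.1.1 on the concatenated libraries of each age, joined them, and deposited, for each ACS, its nearest gene and the count of Tn5 integrations in every library, as whole numbers. Removal of PCR duplicates is not given in the sources used here, so errors cover the counts as they stand. The deposited columns of the authors' own comparison (log2 fold change, mean level, F, p and FDR) were not used.

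Repeated listings were merged (101941 entries, 101603 ACS). Counts were fitted in R 4.3.3 with edgeR 4.0.16 (column sums with TMM factors, no filter, quasi-likelihood test, age as the only term, Benjamini-Hochberg adjustment). The standard error is the log2 fold change divided by the root of F. The fit was tested on simulated data. Replicate pairs had a chi-square per degree of freedom of 3.35 to 7.81, so no library was a copy. The p-values set the difference between the ages against the spread between libraries of the same age. That spread is between adult rats and between litter mixes. Alternatives were other scalings, a low-count filter, DESeq2 1.42.0, limma 3.58.1 (voom), an FDR under 0.05, each library left out and, added after seeing the data, the earlier quasi-likelihood method of edgeR.

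The members and all lists were chosen with earlier results of these data known. Named ACS were those called (up to 15 per direction by p), the 6 strongest and 6 weakest TSS-class ACS, the 5 TSS-class ACS of least change with a mean count of at least 50, the 3 widest ACS and genes with at least 4 ACS, plus up to 10 genes of the pathway list. Promoter sequences came from RefSeq (GRCr8).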

Additional observations from a re-analysis of the deposited data

How the results depend on the processing

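Scaling set the counts most. With column sums alone, 25 members were Down, 7 of them in the TSS class, and the median log2 fold changes were -0.14 in the TSS class and -0.24 outside it, while all ACS gave 10705 Up and 10918 Down in place of 12753 and 6749. With all sequenced reads as library sizes, 1 member was Up and 154 Down, 54 of them in the TSS class. The medians were then -0.87 and -0.97, near the median of all ACS, and all ACS gave 1115 Up and 62466 Down. Under that scaling 11 named Up ACS changed sign: Mrpl36 proximal (-0.088) and start (-0.35), Mrpl37 (-0.088), Mrpl48 (-0.15), Mrpl14 TSS class (-0.18), Mrps10 (-0.23), Mrps11 (-0.10), Mrps16 (-0.21), Mrps23 (-0.050), Mrps24 (-0.16) and Mrps27 (-0.082). Fitted on TSS-class ACS alone, 1 start was Down and the median of the starts was 0.04, with the sign turned but within the spread between replicates. At an FDR under 0.05, 4 members were Up and 1 Down, 0 of them Down in the TSS class by edgeR (4 had an unadjusted p under 0.05, and DESeq2 called 1 and voom 0), and all ACS gave 7509 Up and 1945 Down. With one library left out, members called Up ranged from 7 to 19, Down from 7 to 13 and Down in the TSS class from 1 to 5. The median ranged from -0.12 to -0.01 in the TSS class and from -0.16 to -0.075 outside it, and all ACS called Down ranged from 4042 to 8208. The adult minus P10 difference in the share of integrations held by the 61 TSS-class ACS was -0.0120 percentage points, between -0.0153 and -0.0094 with a library left out, and 0.0022 with the TSS class as denominator. Median-of-ratios factors, the low-count filter, DESeq2 (10 members without an FDR), voom, repeated listings kept and the earlier quasi-likelihood method gave 17 to 20 Up and 12 to 15 Down. Why the settings differ was not tested. No paired analysis was possible because the groups share no replicate number. With 3 libraries per group and a median standard error of 0.27, small changes at a single ACS were not detectable.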

Other observations

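The starts of Mrpl and Mrps genes often lay close to the start of another gene on the opposite strand. In RefSeq (GRCr8), 16 of the 50 genes with a promoter sequence (32.0%) had such a start within 1 kb, beside 13.2% of 7947 genes with a TSS-class ACS and 10.4% of all 27457 genes. The pairs include Mrps7 with Gga3, Mrpl18 with Tcp1, Mrpl51 with Ncapd2, Mrpl40 with Hira, Mrpl32 with Psma2, Mrpl47 with Ndufb5 (a subunit of respiratory complex I) and Mrps27 with Ptcd2. One pair joins both subunits, Mrps11 and Mrpl46. A single TSS-class ACS covers the listed starts of both, and the table lists it with Mrps11 only. An ACS at such a start cannot be assigned to one of the 2 genes by position, and the start ACS of Mrps7, the called start of smallest p, is among them.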
